A study of Mus musculus with 6 samples.

Results

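Genes of the ATP-dependent chromatin remodellers were followed in mouse bone marrow cells labelled by their level of Mmrn1, the gene of multimerin 1, an adhesive protein of platelets and endothelium. The members were taken by name alone: every gene of the deposited table whose symbol begins with Smarca to Smarce, with Arid and a digit, or with Chd and a digit, leaving out pseudogene copies. The rule found 33 genes among 55487, of which 13 carry a Smarc name, 10 an Arid name and 10 a Chd name, and used no measured value.

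By their label the cells are LT-HSCs, long-term haematopoietic stem cells, the long-lived cells from which all blood is renewed, taken from murine bone marrow of mice whose genotype the labels give as Mmrn1-GFP type (GFP is a green fluorescent reporter; its place in the gene is not stated). Poly-A RNA of 3 libraries labelled Mmrn1-low and 3 labelled Mmrn1-high was sequenced, and the labels name no treatment, age, strain or surface gate. All 6 libraries therefore share the Mmrn1-GFP genotype and differ in the labelled Mmrn1 status. Whether replicates are separate animals or separate sorts is not stated, so a p-value here speaks to the scatter of these libraries alone, and that scatter may be technical.

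Nucleosomes, the spools of histone protein that package DNA, are slid, evicted or exchanged by large complexes built around a Snf2-type ATPase. SWI/SNF (BAF and PBAF) opens regulatory DNA, ISWI spaces nucleosomes, the CHD3 to CHD5 ATPases work with histone deacetylases in the NuRD complex, and ARID proteins carry an AT-rich interaction domain that binds DNA and often targets a complex or a deacetylase. In blood, BRG1 (Smarca4), SNF2H (Smarca5) and CHD4 are known to be needed for stem and progenitor cells, and many subunits are recurrently mutated in cancer.

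The libraries held 11595104 to 30909990 counts, so 3 counts correspond to 0.0925 to 0.245 CPM (counts put on a shared total per library, here with TMM, a correction for the makeup of the library). Mmrn1 itself rose from 5.69 ± 0.112 CPM in the Mmrn1-low libraries to 10.0 ± 1.33 CPM in the Mmrn1-high libraries (SD, n = 3; edgeR adjusted p 4.85e-04), in the direction of the labels. Of 12 LT-HSC markers, 10 were higher in the Mmrn1-high libraries and none lower, with a summed level of 131 to 151 CPM in the Mmrn1-low and 381 to 426 CPM in the Mmrn1-high libraries. Granulocyte progenitor markers (8 of 8 lower) summed to 23342 to 24603 CPM in the Mmrn1-low and 3458 to 3532 CPM in the Mmrn1-high libraries, and mitotic genes (12 of 12 lower) to 3512 to 3532 CPM against 1638 to 1715 CPM. Immediate early genes (10 of 10 higher), which respond within minutes to stimulation or handling, summed to 1486 to 1604 CPM in the Mmrn1-low and 4824 to 4901 CPM in the Mmrn1-high libraries. Macrophage markers (9 of 10 lower) summed to 167 to 173 CPM against 26.6 to 27.9 CPM and maturing neutrophil markers (9 of 9 higher) to 2961 to 3086 CPM against 4801 to 5123 CPM. In the same order of groups, summed levels were 33.6 to 34.8 and 46.2 to 47.0 CPM for B cells (6 of 7 higher), 463 to 469 and 152 to 156 CPM for T and NK cells (4 of 6 higher, 1 lower), and 1138 to 1270 and 686 to 739 CPM for plasma cells (1 of 8 higher, 3 lower). Erythroid markers (4 of 7 lower) had 680.1 to 715 and 377 to 388 CPM, and endothelial markers (1 of 5 higher, 3 lower) had 103 to 110.1 and 143 to 155 CPM. No listed marker in the table was at 0 in all libraries. These lists differ between the same groups as the members, and their part in the results was not tested. In such bulk samples fewer cells of a type and less RNA per cell cannot be told apart.

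Among members above 1 CPM the largest changes lay in the CHD ATPases and in Arid3a: Chd7 and Arid3a were lower in the Mmrn1-high libraries, while Chd3, Chd6, Arid5a, Arid4b and Chd2 were higher. With TMM scaling the SWI/SNF subunits Smarcc1, Smarcc2 and Smarcb1 and the NuRD ATPase Chd4 differed by less than 0.1 on the log2 scale and were not called. Of 31 members that passed the filter on low counts, 21 (67.7%) changed at a Benjamini-Hochberg adjusted p under 0.05 by edgeR's quasi-likelihood test, against 61.2% of all 15419 genes tested. In the Mmrn1-high libraries 13 members (41.9%) were higher, against 30.7% of all genes, and 8 (25.8%) were lower, against 30.5%. The members' share called is thus near that of all genes.

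The median log2 fold change, written throughout as Mmrn1-high minus Mmrn1-low, was 0.02 over the members and 0.01 over all genes tested. Its median size was 0.28 over the members and 0.37 over all genes. Of the 31 members tested, 5 passed the test with a log2 fold change of 1 or more in size: Chd7, Arid3a, Chd3, Chd5 and Smarcd3. That share is near the 16.2% of all genes that did so. In 22 of the 31 (71.0%) the 3 libraries of 1 group all lay above the 3 of the other, as they did for 67.8% of all genes. Among Smarc names 4 of 12 tested were higher and 3 lower, among Arid names 5 of 9 and 2, and among Chd names 4 of 10 and 3. Of all genes tested 30.7% were higher and 30.5% lower.

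The scaling sets part of this count. With library size alone in place of TMM factors, the log2 fold changes of all genes moved up by a median of 0.15 and those of the members by 0.15. The members then split into 19 higher and 5 lower (79.2% of calls higher, against 61.9% with TMM). The calls over all genes shifted likewise, to 66.0% higher with library size alone from 50.2% with TMM. For the members, small differences are therefore given under both scalings where the call or the sign changes, and for the lists of partner genes the counts are given under both.

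**Figure D1:**
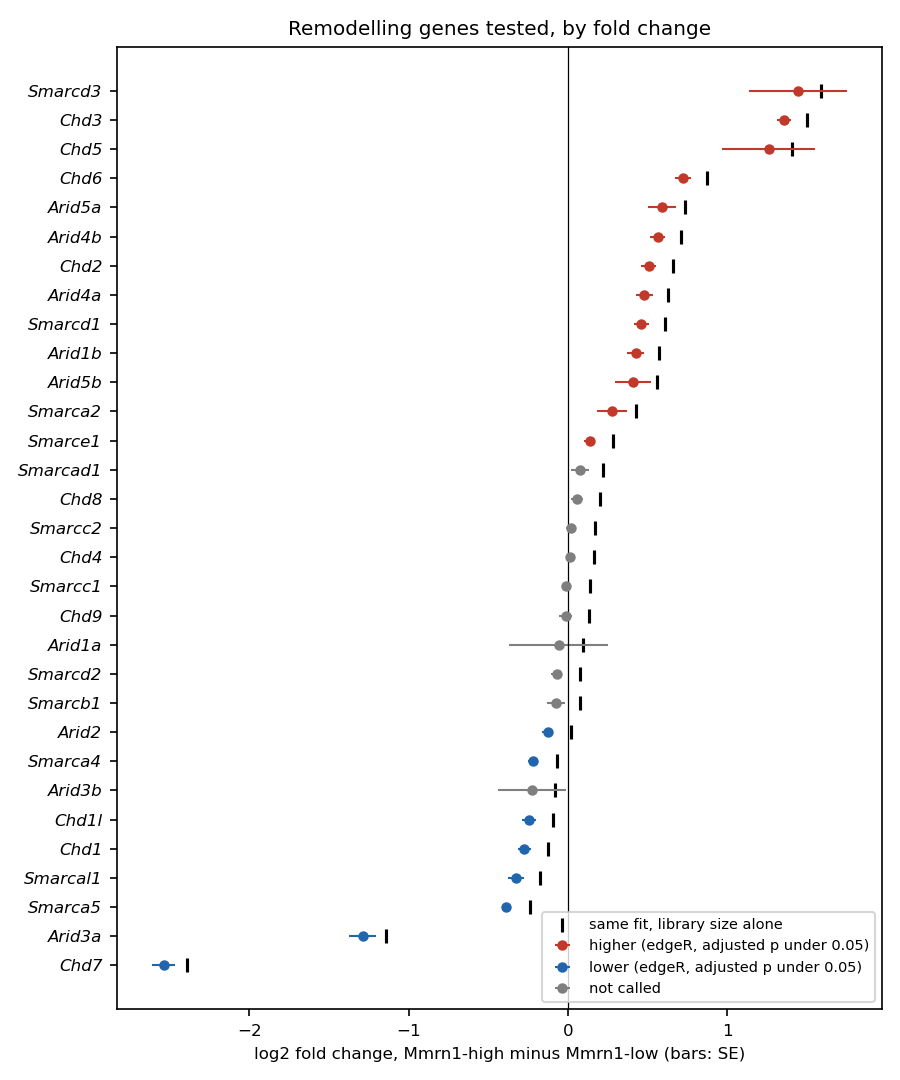
Log2 fold change (Mmrn1-high minus Mmrn1-low, horizontal axis) of the 31 remodelling genes tested, ordered by value; points are edgeR estimates with TMM factors, bars are standard errors, colours give the call, and black ticks give the estimate with library size alone. Chd7 at -2.54 and Smarcd3 at 1.44 mark the ends, and the 10 genes in grey were not called.

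The catalytic subunits of SWI/SNF, BRG1 (Smarca4) and BRM (Smarca2), are alternatives: a complex holds 1 of them. Smarca4 (chromosome 9, 21616169 to 21704230, plus strand, GRCm38) had 397, 376 and 393 CPM in Mmrn1-low replicates 1 to 3 and 335, 339.8 and 327 CPM in Mmrn1-high replicates 1 to 3. Every Mmrn1-high library lay below every Mmrn1-low library, a log2 fold change of -0.22 ± 0.03 (SE; edgeR adjusted p 4.46e-04), which became -0.07 with library size alone (adjusted p 0.0837). Smarca2 (chromosome 19, 26605050 to 26778322, plus strand) had 90.3, 97.5 and 83.2 CPM in the Mmrn1-low and 105, 99.6 and 123 CPM in the Mmrn1-high libraries. The groups did not overlap, but only by a narrow margin, with a rise of 0.28 ± 0.09 (edgeR adjusted p 0.0392). Its direction stayed but its call was lost without Mmrn1-low replicate 1 (0.28, edgeR adjusted p 0.0945) or 3 (0.23, adjusted p 0.0965), and without Mmrn1-high replicate 1 (0.31, adjusted p 0.0639) or 3 (0.18, adjusted p 0.0621).

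A ratio of genes within a library does not depend on the scaling. The log2 ratio of Smarca2 to Smarca4 in FPKM (fragments scaled to gene length and library total) was -3.59, -3.39 and -3.69 in the Mmrn1-low and -3.12, -3.22 and -2.86 in the Mmrn1-high libraries, a change of 0.49. Counted per kilobase of each gene's principal transcript, Smarca2 held 19.96 ± 1.66% of the sum of both ATPases in the Mmrn1-low libraries and 26.0 ± 2.52% in the Mmrn1-high libraries (SD, n = 3). With the gene lengths behind the deposited FPKM the same shares were 7.86% and 10.7%, because those lengths are 1.31 to 8.11 times the principal transcript and differ between members. The exact permutation test over 3 against 3 libraries (two-sided) gave p 0.1 for this ratio, the smallest the design allows, and 0.156 after adjustment over the 14 pairs compared.

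The DNA just upstream of the start site is shown for these opposed ATPases and for Smarca5 and Chd6, remodelling ATPases that fell and rose and have a single window in the promoter table. Sequences are from RefSeq (GRCm38.p6), written 5′ to 3′ on the gene's strand and cut to the stretch that holds no annotated exon. Capitals mark matches on either strand to any of 7 short motifs, which are the SP/KLF box with the letters GGGCGG, the ETS core CCGGAA, the box named by its letters CCAAT, the E-box spelled CACGTG, a site for GATA factors, AGATAA, a site for RUNX factors, TGTGGT, and the cyclic AMP response element core TGACGT. None of the 7 contains another.
Smarca4: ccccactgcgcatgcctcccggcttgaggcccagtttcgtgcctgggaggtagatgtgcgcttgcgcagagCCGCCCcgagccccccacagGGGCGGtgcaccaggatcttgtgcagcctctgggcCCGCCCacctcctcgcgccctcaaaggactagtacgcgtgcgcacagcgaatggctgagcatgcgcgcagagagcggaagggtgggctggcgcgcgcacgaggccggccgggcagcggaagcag
Smarca2: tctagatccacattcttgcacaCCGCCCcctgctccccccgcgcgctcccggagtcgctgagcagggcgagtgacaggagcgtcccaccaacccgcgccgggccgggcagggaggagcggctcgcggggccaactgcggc
Smarca5: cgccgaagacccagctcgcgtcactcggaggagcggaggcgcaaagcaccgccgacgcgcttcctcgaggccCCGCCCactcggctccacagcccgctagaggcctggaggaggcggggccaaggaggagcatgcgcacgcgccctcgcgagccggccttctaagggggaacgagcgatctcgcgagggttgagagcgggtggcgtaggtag
Chd6: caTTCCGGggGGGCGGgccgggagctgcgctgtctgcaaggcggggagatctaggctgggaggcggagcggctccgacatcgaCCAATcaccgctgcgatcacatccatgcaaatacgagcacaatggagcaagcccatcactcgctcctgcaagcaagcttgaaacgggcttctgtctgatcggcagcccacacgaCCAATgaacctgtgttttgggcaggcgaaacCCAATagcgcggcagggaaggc
The Smarca4 stretch (chr9:21615919-21616168, plus strand) has 3 GGGCGG matches, that of Smarca2 (chr19:26604910-26605049, plus strand) has 1, and that of Smarca5 (chr8:80739498-80739709, minus strand) has 1. Upstream of Chd6 (chr2:161109087-161109336, minus strand) stand 1 GGGCGG, 1 CCGGAA and 3 CCAAT matches.

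Of the 33 members, 25 have a window of 250 bases upstream of the start in that table. With 1 window a gene, GGGCGG was in 20 of them (80.0%), against 58.3% of 10229 tested genes and 32.9% of 27018 genes with a window. Median GC content of the members' windows was 63.6%, against 59.6% among tested genes. CCGGAA was in 24.0% of the members' windows (22.6% of tested genes, 12.2% of all), CCAAT in 28.0% (37.1%, 34.5%), AGATAA in 8.0% (6.20%, 10.3%), TGTGGT in 4.0% (11.2%, 14.2%), TGACGT in 4.0% (10.4%, 6.56%), and CACGTG in 0 of 25 (8.38%, 6.05%). Chd7, Chd3, Arid3a, Chd1, Chd2, Arid2, Arid4a and Smarce1 had no entry.

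Among the structural subunits of SWI/SNF, 3 of 7 (42.9%) rose and none fell, so that 42.9% were called, against 61.2% of all genes (30.7% higher and 30.5% lower). The 3 were Smarcd1, Smarce1 and the barely detected Smarcd3. The scaffold subunits stayed level: Smarcc1 had 332, 329.9 and 339 CPM in the Mmrn1-low and 327, 335 and 329 CPM in the Mmrn1-high libraries. Smarcc2 had 201, 192 and 198 CPM against 196, 199 and 203 CPM. Both overlapped between groups and missed the threshold with TMM factors (edgeR adjusted p 0.691 and 0.619), with log2 fold changes of -0.01 and 0.02. With library size alone they were called higher, by 0.14 and 0.17.

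Smarcb1 (SNF5), the core subunit lost in rhabdoid tumours, had 103, 102 and 102 CPM in the Mmrn1-low and 106, 95.7 and 89.6 CPM in the Mmrn1-high libraries. Its Mmrn1-high libraries spread on either side of the Mmrn1-low ones, and the difference of -0.08 ± 0.06 missed the threshold (edgeR adjusted p 0.290). Without Mmrn1-high replicate 1 it passed (-0.13, adjusted p 0.0427), and with library size alone its sign turned (0.07). Smarce1 (BAF57), a DNA-binding subunit with an HMG box, had 94.7, 93.8 and 94.6 CPM against 102, 107 and 102 CPM. That rise was small, 0.14 ± 0.04 (edgeR adjusted p 0.0101; DESeq2 0.12, adjusted p 0.101).

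The SMARCD (BAF60) subunits, which connect SWI/SNF to transcription factors, shifted toward Smarcd1. Smarcd1 (chromosome 15, 99702129 to 99713991, plus strand) had 64.9, 68.2 and 67.5 CPM in the Mmrn1-low and 88.2, 95.8 and 92.1 CPM in the Mmrn1-high libraries, all of the latter higher, with a log2 fold change of 0.46 ± 0.05 (edgeR adjusted p 5.08e-05). It shares 12.7% of its exon bases with Gm17349 and Gm34939 on the opposite strand. Smarcd2, the form known for its need in granulocyte development, had 208, 198 and 194 CPM against 189.96, 189 and 192 CPM. Its groups did not overlap, yet the difference of -0.07 ± 0.03 missed the threshold (edgeR adjusted p 0.0994) and turned to 0.08 with library size alone. Per kilobase of principal transcript, Smarcd1 held 21.7 ± 1.01% of the SMARCD sum in the Mmrn1-low and 28.5 ± 0.929% in the Mmrn1-high libraries, and the log2 ratio of Smarcd1 to Smarcd2 changed by 0.53 without overlap (exact permutation p 0.1, adjusted 0.156).

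Smarcd3, the form best known from heart and muscle, was close to the detection limit, with 0.254, 0.295 and 0.453 CPM in the Mmrn1-low and 1.06, 0.925 and 1.005 CPM in the Mmrn1-high libraries. These rest on 4 to 30 counts a library, and the estimate of 1.44 ± 0.31 (edgeR adjusted p 0.00393) is on that small base. Of its exon bases 50.1% are shared with genes on the opposite strand, mainly Chpf2 (52.5 ± 38.6 CPM in the Mmrn1-low and 59.4 ± 1.38 CPM in the Mmrn1-high libraries), and no source used here gives the strand setting of the counting.

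The ARID subunits define the type of SWI/SNF complex: Arid1a or Arid1b sits in BAF and Arid2 in PBAF. Arid1a had 351, 334 and 212 CPM in the Mmrn1-low and 383, 236 and 243 CPM in the Mmrn1-high libraries. Its libraries fell into high and low values within each group, with a difference between groups of -0.06 ± 0.31 (edgeR adjusted p 0.890; 0.09 with library size alone, adjusted p 0.823). The SD within groups was 0.40 on the log2 scale, and among the 2543 genes with a mean of at least 100 CPM only 44 (1.73%) varied more. Smarcc1, at a similar level, had an SD of 0.019.

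Arid1b (chromosome 17, 4994332 to 5347656, plus strand), the alternative to Arid1a, had 153, 148 and 155 CPM in the Mmrn1-low and 213, 212 and 187 CPM in the Mmrn1-high libraries. The groups were apart, with a log2 fold change of 0.42 ± 0.05 (edgeR adjusted p 1.89e-04). The log2 ratio of Arid1b to Arid1a, in contrast, overlapped between groups (change 0.48, exact permutation p 0.2, adjusted 0.28). Arid2 had 165, 166 and 166 CPM against 148, 158 and 149.7 CPM, a small fall of 0.13 on the log2 scale (SE 0.04; edgeR adjusted p 0.0139) that turned to 0.02 with library size alone (adjusted p 0.614) and lost its call without Mmrn1-high replicate 1 (-0.09, adjusted p 0.0732). The call was also lost with no filter on low counts (-0.11, adjusted p 0.0853) and with a filter of 5 CPM (-0.08, adjusted p 0.0732).

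Smarca5 (SNF2H), the ISWI ATPase of most tissues, fell from 288, 289.6 and 299 CPM in the Mmrn1-low to 221, 224 and 225 CPM in the Mmrn1-high libraries. The gap between groups was wider than the spread within them, with a log2 fold change of -0.39 ± 0.03 (edgeR adjusted p 7.52e-06; -0.24 with library size alone, adjusted p 1.26e-04). Its pseudogene copy Smarca5-ps, which could share reads, had 11.4 ± 2.45 against 8.61 ± 1.11 CPM. The other ISWI ATPase, Smarca1 (SNF2L), was counted 2, 1 and 2 times in the Mmrn1-low and 5, 17 and 9 times in the Mmrn1-high libraries and was not tested. Smarcal1, an annealing helicase that protects stalled replication forks, had 62.3, 59.4 and 58.6 CPM against 48.3, 46.1 and 49.4 CPM, a log2 fold change of -0.33 ± 0.05 (edgeR adjusted p 6.50e-04; -0.18 with library size alone, adjusted p 0.0138). The helicase Smarcad1, which acts in DNA end resection and heterochromatin upkeep, overlapped between groups (0.07 ± 0.06, edgeR adjusted p 0.292; 0.22 with library size alone, adjusted p 0.00972).

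**Figure D2:**
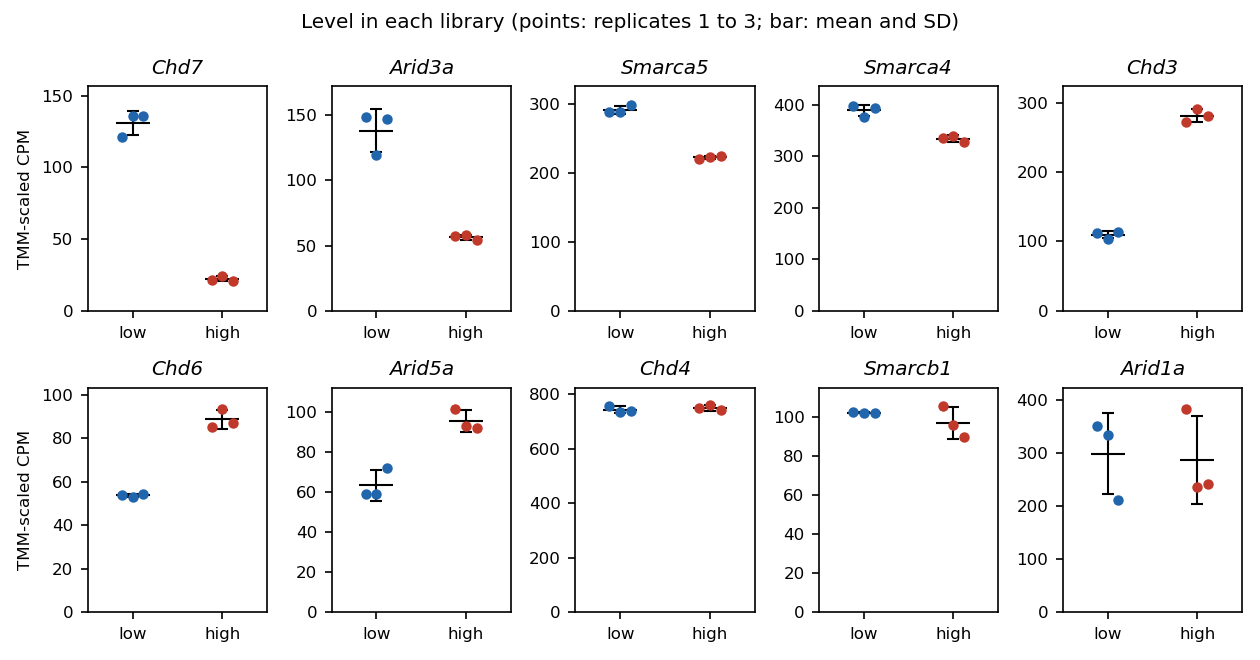
TMM-scaled CPM (vertical axes, each from 0) of 10 remodelling genes in the 3 Mmrn1-low (blue) and 3 Mmrn1-high (red) libraries; points are replicates 1 to 3 from left to right, lines are the mean and SD. Chd7, Arid3a, Smarca5 and Smarca4 lie lower and Chd3, Chd6 and Arid5a higher in every Mmrn1-high library, while Chd4 is level and Arid1a varies from 212 to 351 and from 236 to 383 CPM within the groups.

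The ARID3 to ARID5 proteins lie outside SWI/SNF. Arid3a (Bright; chromosome 10, 79927043 to 79955018, plus strand), a factor known for B cell and early haematopoietic development, had 148, 119 and 147 CPM in the Mmrn1-low and 56.9, 57.9 and 54.3 CPM in the Mmrn1-high libraries. Each Mmrn1-low library exceeded each Mmrn1-high one, and the level was 2.45-fold lower in the Mmrn1-high group (log2 -1.29 ± 0.09, edgeR adjusted p 1.58e-05). Its paralogue Arid3b had 7.93, 9.001 and 8.01 CPM against 6.54, 9.25 and 4.96 CPM. There the groups overlapped and the difference of -0.23 ± 0.21 missed the threshold (edgeR adjusted p 0.395), although it passed without Mmrn1-high replicate 2 (-0.52, adjusted p 0.0246). The log2 ratio of Arid3a to Arid3b fell by 0.97 without overlap between groups (exact permutation p 0.1, adjusted 0.156). Arid3c had 2 counts in all, both in Mmrn1-high replicate 2.

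Both ARID4 proteins, subunits of the Sin3 histone deacetylase complex that bind the retinoblastoma protein, rose. Arid4b had 41.9, 42.9 and 44.2 CPM in the Mmrn1-low and 64.8, 61.8 and 64.2 CPM in the Mmrn1-high libraries (0.56 ± 0.05, edgeR adjusted p 1.87e-05). Arid4a had 80.2, 72.2 and 76.4 CPM against 105, 112 and 102 CPM (0.48 ± 0.05, edgeR adjusted p 1.18e-04). Every Mmrn1-high library exceeded every Mmrn1-low library for both genes, and their log2 ratio overlapped between groups (change -0.09, exact permutation p 0.4, adjusted 0.431).

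Both ARID5 proteins rose as well. Arid5a, an RNA-binding protein known to stabilise Il6 mRNA, had 59.1, 58.9 and 72.2 CPM in the Mmrn1-low and 102, 93.2 and 91.9 CPM in the Mmrn1-high libraries (0.59 ± 0.09, edgeR adjusted p 8.35e-04). Arid5b, whose locus carries inherited risk for childhood leukaemia, had 21.6, 18.4 and 17.3 CPM against 23.4, 23.9 and 28.5 CPM (0.41 ± 0.11, edgeR adjusted p 0.0127). In both genes every Mmrn1-high library lay above every Mmrn1-low one, for Arid5b by a smaller gap than the spread within the groups.

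Of the CHD ATPases, 4 of 10 rose and 3 fell, against 30.7% and 30.5% of all genes. Both directions occurred in the CHD1 to CHD2 and the CHD6 to CHD9 subfamilies. CHD1 and CHD2, which bear on open chromatin and transcribed genes, moved apart. Chd1 had 152, 155 and 165 CPM in the Mmrn1-low and 129, 134 and 128 CPM in the Mmrn1-high libraries, a log2 fold change of -0.27 ± 0.04 (edgeR adjusted p 5.19e-04; -0.13 with library size alone, adjusted p 0.0274). On log2 FPKM with limma that call was lost (-0.12 to -0.13, adjusted p 0.0502 to 0.0832). Chd2 had 91.9, 82.8 and 86.6 CPM against 124.5, 127 and 119.7 CPM, a log2 fold change of 0.51 ± 0.05 (edgeR adjusted p 3.76e-05). The log2 ratio of Chd1 to Chd2 fell by 0.78 with no overlap between groups (exact permutation p 0.1, adjusted 0.156). Chd2 shares 19.3% of its exon bases with other genes, mainly the same-strand transcript 1810026B05Rik, which itself stood at 23.2 ± 9.92 CPM in the Mmrn1-low and 46.0 ± 1.57 CPM in the Mmrn1-high libraries. Chd1l (ALC1), a remodeller activated by poly(ADP-ribose) at DNA breaks, had 77.4, 74.4 and 81.4 CPM against 66.8, 64.2 and 65.9 CPM, a difference of -0.25 ± 0.05 (edgeR adjusted p 0.00213) that lost its call with library size alone (-0.10, adjusted p 0.112).

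Of the NuRD ATPases, Chd4 (Mi-2 beta) was level and Chd3 (Mi-2 alpha) rose. Chd4 had 757, 734 and 741 CPM in the Mmrn1-low and 748, 763 and 742 CPM in the Mmrn1-high libraries, the highest level of any member per kilobase in both groups (111 and 112 CPM per kilobase of principal transcript). Its difference was 0.01 ± 0.02 (edgeR adjusted p 0.662), and 0.16 with library size alone, where it was called. Chd3 (chromosome 11, 69343273 to 69369406, minus strand) had 112, 104 and 113 CPM against 272, 290.5 and 280.4 CPM, a 2.56-fold rise (log2 1.36 ± 0.04, edgeR adjusted p 1.23e-07). Every Mmrn1-high library held more than 2 times the Chd3 of any Mmrn1-low library.

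Per kilobase of principal transcript, Chd3 made up 11.97 ± 0.428% of the 3 NuRD ATPases in the Mmrn1-low and 25.6 ± 0.490% in the Mmrn1-high libraries. The share of Chd4 was 88.0 ± 0.425% and 74.3 ± 0.475%. Chd5, best known from neurons, made up the rest, with 0.508, 0.443 and 0.383 CPM in the Mmrn1-low and 1.31, 0.894 and 1.07 CPM in the Mmrn1-high libraries (1.26 ± 0.29, edgeR adjusted p 0.00597; DESeq2 1.27, adjusted p 0.0567). Its libraries held 6 to 29 counts each. In the order of levels per kilobase Chd3 stood at rank 18 of the 33 members in the Mmrn1-low and rank 7 in the Mmrn1-high libraries.

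The CHD6 to CHD9 subfamily held the largest change of all members. Chd7 (chromosome 4, 8690406 to 8867659, plus strand), the enhancer-bound remodeller mutated in CHARGE syndrome, had 122, 136 and 136 CPM in the Mmrn1-low and 21.7, 24.5 and 21.04 CPM in the Mmrn1-high libraries. It was 5.82-fold lower in the Mmrn1-high group (log2 -2.54 ± 0.07, edgeR adjusted p 7.05e-08), with a wide gap between groups. Chd6 (chromosome 2, 160946978 to 161109075, minus strand) moved the other way, from 54.2, 53.0 and 54.4 CPM to 85.3, 93.8 and 87.2 CPM (0.72 ± 0.05, edgeR adjusted p 5.42e-06). Chd8, an autism risk gene and repressor of Wnt signalling, had 121, 124 and 126 CPM against 124, 132 and 129.5 CPM, and Chd9 had 89.7, 93.0 and 89.2 CPM against 92.0, 90.8 and 86.5 CPM. Neither passed with TMM factors (edgeR adjusted p 0.234 and 0.784), and both overlapped between groups. With library size alone both were called higher, by 0.20 and 0.13, and Chd8 also with a filter of 5 CPM (0.10, adjusted p 0.0302).

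The makeup of this subfamily changed accordingly. Chd7 held 32.0 ± 1.13% of its summed level per kilobase of principal transcript in the Mmrn1-low and 6.61 ± 0.350% in the Mmrn1-high libraries. The share of Chd6 was 12.8 ± 0.462% and 25.4 ± 0.466%. On this basis Chd8, level in CPM, was the largest part in both groups with 36.3 ± 0.412% and 45.4 ± 0.875%. Chd9 had 18.9 ± 0.543% and 22.5 ± 0.954%. With the gene lengths behind the deposited FPKM, the largest part in the Mmrn1-low libraries was Chd7 (37.5%, Chd8 29.9%). In the Mmrn1-high libraries it was still Chd8 (39.0%). The log2 ratio of Chd7 to Chd8 in FPKM was 0.25, 0.37 and 0.36 in the Mmrn1-low libraries. In the Mmrn1-high libraries it was -2.26, -2.18 and -2.38, a fall of 2.60, and that of Chd6 to Chd9 rose by 0.73. Neither ratio overlapped between groups (exact permutation p 0.1 each, adjusted 0.156).

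**Figure D3:**
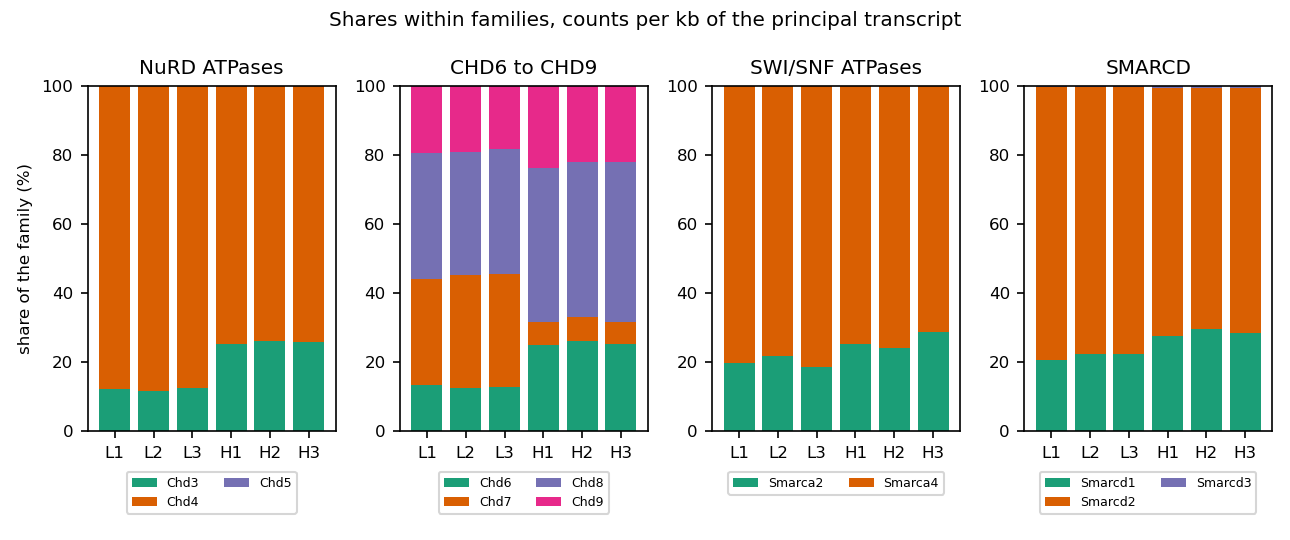
Share (%) of each paralogue in the summed counts per kilobase of principal transcript for 4 families, in Mmrn1-low (L1 to L3) and Mmrn1-high (H1 to H3) replicates 1 to 3. Chd3 grows from 11.97% to 25.6% of the NuRD ATPases and Chd7 shrinks from 32.0% to 6.61% of CHD6 to CHD9; Chd5 and Smarcd3 are too small to see.

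Of the 14 paralogue pairs compared, 9 had log2 ratios that did not overlap between the groups, each with exact permutation p 0.1. Of single genes, 67.8% of all tested did not overlap. For Smarca1 to Smarca5 (2.93) and Smarcd3 to Smarcd1 (1.16) the change rests on very low counts and shrank to 0.78 and 0.17 with 0.1 FPKM added to each gene. The pairs that overlapped were Smarcc1 and Smarcc2, Arid1b and Arid1a, Arid2 and Arid1a, Arid4a and Arid4b, and Arid5a and Arid5b.

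In the order of levels per kilobase of principal transcript, Chd4, Smarcd2 and Smarcb1 led in both groups with 111, 72.8 and 61.5 CPM per kilobase in the Mmrn1-low and 112, 69.2 and 58.4 in the Mmrn1-high libraries. Smarcb1 and Smarca4 (61.2) did not differ beyond their spread in the Mmrn1-low libraries, nor did Smarcb1 and Smarcc1 (57.8) in the Mmrn1-high libraries. The place of Smarcb1 depends on the gene length used. In the deposited FPKM it lay below Smarca4, Smarcc1 and Smarca5 in every library, while Chd4 still led. Arid3a went from rank 11 to rank 24 and Chd7 from rank 22 to rank 28. Smarcd3, Chd5, Smarca1 and Arid3c held the last ranks in both groups.

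Other genes of the same complexes were taken from lists written from general knowledge, 81 genes in all, of which 79 were tested. Of these 14 (17.7%) rose and 32 (40.5%) fell, against 30.7% and 30.5% of all genes, with a median log2 fold change of -0.12, and with library size alone 23 rose and 13 fell (6201 and 3193 of all genes, median 0.03 over the list). The sign of the list's median thus depends on the scaling. Over all genes the median was 0.01 with TMM and 0.15 with library size alone, above that of the list both times.

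Among 15 tested SWI/SNF subunits with other names, 5 rose (Ss18l1, Bicral, Bcl7a, Dpf2 and Bcl7c) and 5 fell (Pbrm1, Brd7, Phf10, Actl6a and Brd9), 33.3% each against 30.7% and 30.5% of all genes, with a median of 0.10. Ss18l1, a BAF subunit known from neurons, rose by 0.81 ± 0.13 on the log2 scale (edgeR adjusted p 8.14e-04). Pbrm1 (polybromo, the bromodomain subunit of PBAF) had -0.21 ± 0.03 (edgeR adjusted p 4.72e-04), Brd7 -0.24 ± 0.04 (edgeR adjusted p 0.00107) and Phf10 -0.21 ± 0.04 (edgeR adjusted p 0.00302). With Arid2 these are the subunits that set PBAF apart, a grouping chosen after their values were seen, and with library size alone none of the 4 was called (Pbrm1 -0.06, Brd7 -0.09, Phf10 -0.06). Actl6a (-0.03) and Brd9 (0.00) lost their calls there as well, so that 5 genes of the list were called higher and none lower. Calls over all genes also moved, from 50.2% higher with TMM to 66.0% with library size alone.

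The NuRD partners of Chd3 and Chd4 had 2 of 12 higher (Mta3 and Hdac2) and 5 lower (Mbd3, Gatad2a, Rbbp4, Mbd2 and Mta2), 16.7% and 41.7% against 30.7% and 30.5% of all genes, with a median of -0.13. With library size alone 4 were higher and 2 lower, with a median of 0.02. All genes likewise had 66.0% of calls higher under that scaling, with a median of 0.15. Mta2, which binds the deacetylases, was then called higher (from -0.07 to 0.08, edgeR adjusted p 0.0171), and the calls of the histone chaperone Rbbp4 (0.01) and of Mbd2 (-0.03) were lost. Mta3 rose from 43.3 ± 4.33 to 70.7 ± 0.717 CPM (0.71 ± 0.07, edgeR adjusted p 5.74e-05). Mbd3, the methyl-CpG-binding-domain protein that distinguishes a form of NuRD, fell from 159.6 ± 4.29 to 111 ± 5.29 CPM (-0.52 ± 0.04, edgeR adjusted p 1.78e-05). Gatad2a, which joins the ATPase to the deacetylase, had -0.25 ± 0.03 (edgeR adjusted p 3.43e-04).

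Partners of Smarca5 in the ISWI complexes had 2 of 9 higher (Baz2b and Bptf) and 3 lower (Baz1a, Baz1b and Pole3), 22.2% and 33.3% against 30.7% and 30.5% of all genes, with a median of 0.04. Under library size alone 5 were higher and only Baz1a lower, with a median of 0.19. For all genes 66.0% of calls were then higher, with a median of 0.15. The sign of Pole3 turned under that scaling (from -0.14 to 0.01). Baz1a (ACF1), which pairs with SNF2H to space nucleosomes, fell from 539 ± 15.6 to 196 ± 2.04 CPM, the largest change among the listed partners (-1.46 ± 0.03, edgeR adjusted p 1.55e-08). Baz2b rose by 0.21 ± 0.04 (edgeR adjusted p 9.71e-04) and Baz1b had -0.14 ± 0.03 (edgeR adjusted p 0.00140; 0.00 with library size alone).

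The INO80, SRCAP and TIP60 list, remodellers of histone H2A.Z built on the Ruvbl helicases, had 1 of 21 (4.76%) higher (Nfrkb) and 13 (61.9%) lower, against 30.7% and 30.5% of all genes, with a median of -0.20. With library size alone 1 was higher and 5 lower, with a median of -0.05. Calls over all genes were then 66.0% higher, with a median of 0.15. Uchl5 had -0.58 ± 0.03 (edgeR adjusted p 2.03e-06), Ruvbl2 -0.56 ± 0.03 (edgeR adjusted p 2.33e-06) and Ino80e -0.50 ± 0.04 (edgeR adjusted p 1.73e-05).

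Of the 10 Sin3 complex genes that share a complex with Arid4a and Arid4b, Sin3b and Ing2 rose (0.20 ± 0.05 and 0.24 ± 0.06, edgeR adjusted p 0.00635 and 0.00924) and Sap130 fell (-0.29 ± 0.04, edgeR adjusted p 5.89e-04). The shares higher and lower were both below those of all genes (30.7% and 30.5%). The median of the 10 genes was -0.07, and with library size alone 4 were higher and 1 lower, with a median of 0.08. Over all genes 66.0% of calls were higher with that scaling, and the median was 0.15. Among 13 other Snf2-type helicases Atrx and Zranb3 rose and 6 fell, 15.4% and 46.2% against 30.7% and 30.5% of all genes, with a median of -0.11. With library size alone 4 were higher and 4 lower, and the median of 0.04 was again below that of all genes (0.15). Ttf2, which releases transcripts at mitosis, had -0.56 ± 0.05 (edgeR adjusted p 1.85e-05), Rad54l, a helicase of homologous recombination, -0.30 ± 0.04 (edgeR adjusted p 1.87e-04) and Ercc6l (PICH), which acts on mitotic DNA bridges, -0.45 ± 0.06 (edgeR adjusted p 2.21e-04). All 12 mitotic marker genes fell between the same groups, and their part in these values was not tested.

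**Figure D4:**
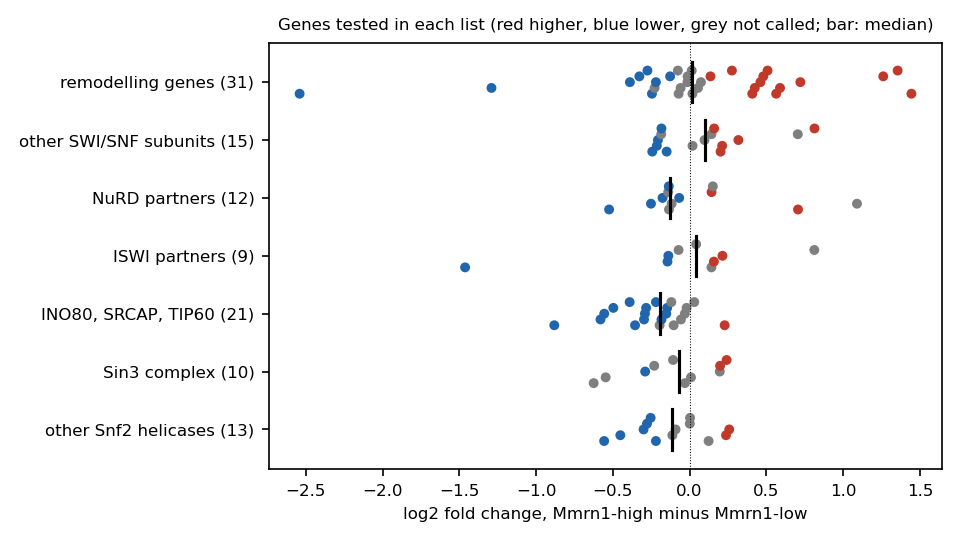
Log2 fold change (Mmrn1-high minus Mmrn1-low, horizontal axis) of each gene tested among the remodelling genes and 6 lists of complex partners; each point is a gene, red higher, blue lower and grey not called by edgeR, and black bars are medians. The remodelling genes spread to both sides around 0.02, and the INO80, SRCAP and TIP60 list lies mostly to the left with a median of -0.20.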

How the data were processed

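RNA-seq of 3 Mmrn1-low and 3 Mmrn1-high libraries was analysed from the authors' table. Per the file headers it gives raw counts and FPKM for 55487 genes. GRCm38, HISAT2, StringTie, edgeR and CASAVA 1.8 are named, without their roles, in the submitters' processing notes. No source used here gives the strand setting or the gene lengths behind the deposited FPKM. The labels' protocols describe poly-A selection and stranded paired-end libraries.

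Deposited counts were tested with edgeR 4.0.16 (R 4.3.3; TMM, filterByExpr, robust quasi-likelihood F test, group as the only term), with Benjamini-Hochberg adjustment over all 15419 genes tested and a threshold of 0.05. SE was taken as the log2 fold change over the root of its F value. Paralogue pairs were compared as log2 ratios of the deposited FPKM, with no pseudocount, by exact two-sided permutation tests (SciPy 1.17.1) adjusted over 14 pairs. Since those FPKM imply gene lengths above the annotated transcripts, shares use counts per kilobase of the GENCODE M21 principal transcript; this was chosen after seeing the data. Coordinates of all 33 members were identical in GENCODE M21. Exon bases are shared with another gene by 15 members, 4 of them above 5% (Chd2, Chd8, Smarcd1 and Smarcd3). The alternatives were other scalings and filters, DESeq2 1.42.0, limma 3.58.1 (voom on counts, and log2 FPKM with 1 or 0.1 added), a replicate block, a threshold of 0.01 and leaving out each library. The scripts were checked on simulated data.

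Values in every library are given for Smarca4, Smarcb1, Arid1a, Chd4, the 5 called members with the largest fold change in each direction at a mean of at least 1 CPM, and members of pairs described, and up to 3 genes with the smallest p are named per partner list, with each gene where a count is 5 or fewer; Smarcd3, Chd5 and the remaining members were added to account for all. Members, lists and alternatives were chosen with earlier results of these data known. Replicate pairs within a group differed by more than sampling noise (mean chi-square per gene 6.33 to 10.6), so none was counted as a duplicate. The median per gene was far lower, 0.776 to 1.175, so the mean rests on the genes that differed most.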

Additional observations from a re-analysis of the deposited data

How the results depend on the processing

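Of the 21 members called, 13 kept call and direction under every alternative that tested them. With library size alone in place of TMM, 5 members were lower, and of the partner genes 23 were higher and 13 lower. With limma on log2 FPKM (1 added, 0.1 added, and 1 added without a filter) 4 members were lower each time, 3019, 3011 and 3020 of all genes were lower, 12, 12 and 10 partner genes were lower, and 22 were higher with either pseudocount. Under library size alone and those 3 FPKM fits, in that order, these log2 fold changes reversed: Arid1a 0.092, 0.083, 0.088 and 0.083; Arid2 0.022, 0.018, 0.020 and 0.018; Chd9 0.13, 0.099, 0.13 and 0.099; Smarcb1 0.072, 0.061, 0.068 and 0.061; Smarcc1 0.14, 0.13, 0.13 and 0.13; Smarcd2 0.077, 0.075, 0.077 and 0.075. Without a filter on low counts Chd9 was 0.0027 and Smarcc1 0.0032, and with at least 5 CPM in 3 libraries 0.036 and 0.037. Chd4 was -0.0019 with DESeq2. Leaving out 1 library gave -0.31 to 0.085 for Arid1a, -0.018 to 0.0099 for Chd9, -0.023 to 0.0081 for Smarcc1, and -0.22 to 0.18 for the change in the log2 ratio of Arid2 to Arid1a. The cause of these changes was not tested.

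Same-numbered libraries did not deviate together (correlations 0.043, -0.079 and 0.029). These values cannot show whether such libraries came from the same animals or sort, which the labels do not state. With a replicate block 12 members were higher and 8 lower, Smarca2 losing its call (0.27, adjusted p 0.113), and 4476 of all genes were higher and 4447 lower.

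Depth limits Smarcd3, Chd5, Smarca1 and Arid3c, which had at most 30 counts in any library.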
